A study of Homo sapiens
Mus musculus with 17 samples.

Results

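The comparison described here is between tumours of mice given alpelisib and tumours of mice given vehicle, 4 RNA sequencing libraries of each, chosen by their sample titles from the 17 libraries of the study. All 17 are xenografts in mice of the strain Hsd:Athymic Nude-Foxn1nu, which lack a thymus and the T cells that mature there. The characteristics name the implanted cells as VM-CUB-1, an established human bladder cancer line, whereas the source label calls the material a PDX. The vehicle was 0.5% methylcellulose with 0.1% Tween80, alpelisib (BYL719) was dosed at 25 mg/kg, and both were given for 7 days. The other libraries are from mice given nintedanib, an inhibitor of the receptors for VEGF, FGF and PDGF, at 40 mg/kg alone (5 libraries) or with alpelisib at 25 mg/kg (4 libraries). By their titles, 3 of the 5 nintedanib libraries are of responders and 2 of non-responders. Whether the 4 libraries of a group are 4 mice is not in the labels, and p-values therefore describe only library-to-library spread, part of which may be technical. Tumours are of 1 cell line, the animals' ages are not given, and the reads of each library were mapped separately to the human and to the mouse genome, so that human reads stand mainly for tumour cells and mouse reads mainly for host cells.

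Alpelisib blocks p110-alpha, the catalytic subunit of phosphoinositide 3-kinase (PI3K) encoded by PIK3CA. PI3K, recruited to activated receptor tyrosine kinases through its regulatory subunits, makes the membrane lipid that activates AKT, and AKT in turn drives mTOR and protein synthesis and keeps FOXO transcription factors out of the nucleus. When the pathway is blocked, FOXO proteins are known to return to the nucleus and to switch on genes for receptors and for inhibitors of growth signalling. Bladder tumours with squamous features express keratins and barrier proteins of stratified epithelia, whose outer cells assemble a cornified envelope from precursors such as loricrin, small proline-rich proteins and late cornified envelope proteins.

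Values below are normalized counts, that is read counts divided by a size factor per library, and are listed in the order of replicates 1 to 4. Differences are log2 alpelisib minus vehicle of the normalized count plus 1, with the standard error (SE) of limma. Recovered reads per library ranged from 7429753 to 25654879 for human and from 2271764 to 6517101 for mouse genes. Vehicle 3 had the fewest human reads, and 72.9% of its mouse reads fell on Rn45s and Lars2, genes that collect ribosomal RNA reads, against 44.1% in alpelisib 3 and 2.05% to 13.1% in the other 6. In human reads the ribosomal protein genes, a set of short transcripts, took 3.24% in vehicle 3, 7.11% to 7.74% in the other vehicle libraries and 7.26% to 12.2% in alpelisib libraries. Library weights estimated from the residuals, in which a library that fits its group's means poorly counts less, were 0.158 for vehicle 3 and 0.657 to 4.13 for the other 7 in the human table. They were 4.13, 2.77 and 1.53 for vehicle 1, 2 and 4 and 0.657 to 1.55 for the alpelisib libraries. Vehicle 1 and 2 therefore count most in the weighted vehicle mean. In the mouse table the weights of vehicle 1 to 4 were 2.28, 3.74, 0.179 and 1.19.

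No gene passed an adjusted p under 0.05 in limma over 14533 human or 11831 mouse genes, and the lowest adjusted p was 0.209 in human and 0.183 in mouse reads. The difference was positive in 52% and negative in 48% of human genes. At an unadjusted p under 0.05, 1665 human genes were higher (11.5%) and 1042 lower (7.17%) with alpelisib. These 2707 genes became 1735 without vehicle 3 and 1480 without alpelisib 4. In 856 human genes (5.89%) all 4 alpelisib libraries lay above all 4 vehicle libraries, and in 865 (5.95%) all lay below. Without vehicle 3 such separation was found for 1116 higher (7.68%) and 1267 lower genes (8.72%). With library weights, 801 human genes rose (5.51%) and 594 fell (4.09%) at an adjusted p under 0.05, and with weights and without vehicle 3 the counts were 822 (5.66%) and 605 (4.16%), of which 1331 were called in both fits. DESeq2 on the recovered reads called 173 human genes, 165 higher and 8 lower. edgeR and limma-voom called 0. With only the 8 compared libraries in the fit and vehicle 3 left out, 192 human genes were higher (1.32%) and 106 lower (0.729%), and in mouse reads 1 gene was lower (0.00845%). Below, "rose" and "fell" stand for an adjusted p under 0.05 in the fit with library weights, while the sizes given are the unweighted differences, none of which passed. Counts of risen and fallen genes in a list are to be set beside 5.51% and 4.09% of all human genes. In mouse reads these shares were 0.989% and 0.431%.

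The subunits of PI3K, the direct target of the drug, were lower or close to vehicle at the RNA level. All 10 measured subunits had a negative difference with a median of -0.44, against a median of 0.025 over all genes. Without vehicle 3 the median was -0.29 and 1 difference was positive. PIK3R3, a regulatory subunit of the p55 type, had 1293, 1599.5, 1466 and 1244 in vehicle and 966, 733, 738 and 648 in alpelisib libraries. It fell by 0.87 ± 0.20 on the log2 scale (limma adjusted p = 0.209, and 0.0115 with library weights), with every alpelisib library below every vehicle library. PIK3CB, the catalytic subunit p110-beta, had 1080.2, 924, 1322 and 769 in vehicle and 634, 708, 626 and 511 in alpelisib libraries. Its groups did not overlap either, and it fell by 0.70 ± 0.26 (adjusted p = 0.0382 with library weights). PIK3R1, which encodes the regulatory subunit p85-alpha, had 400.1, 432, 760.3 and 344 in vehicle and 256, 293, 313 and 159 in alpelisib libraries, a difference of -0.90 ± 0.38 that did not pass with weights (adjusted p = 0.0901). Vehicle 3 was the highest library for PIK3R1, and without it the difference was -0.66. PIK3CA itself had 382, 435, 845 and 357 in vehicle and 305, 357, 517 and 285 in alpelisib libraries. Its groups overlapped, and the difference of -0.41 ± 0.32 became -0.13 without vehicle 3. PIK3CD, the p110-delta subunit typical of leukocytes, had a difference of -0.16 ± 0.30 with overlapping groups. In all, 3 of the 10 subunits were lower at an unadjusted p under 0.05 and without overlap, and 2 of them fell with weights. Over all human genes these shares were 7.17%, 5.95% and 4.09%.

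**Figure D1:**
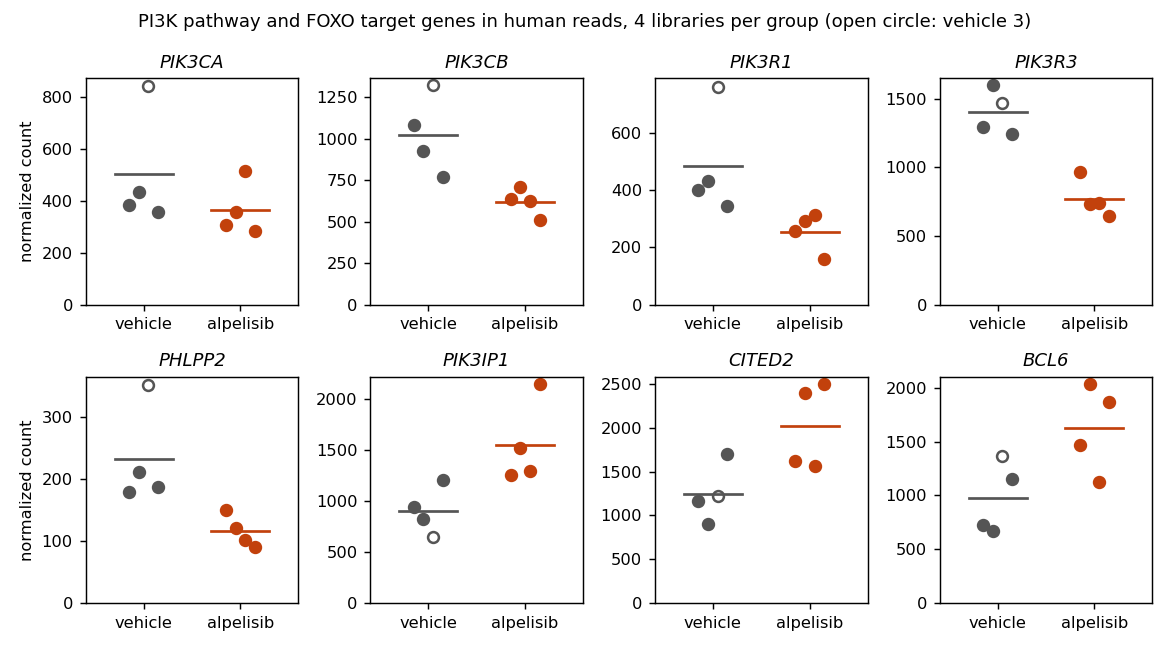
Normalized counts of 8 human genes in each of 4 vehicle (grey) and 4 alpelisib (orange) libraries, with group means as bars, a linear axis from 0 and vehicle 3 as an open circle. PIK3R3, PIK3CB, PIK3R1 and PHLPP2 lie lower without overlap, PIK3IP1 lies higher without overlap, and for PIK3CA the open circle is the highest point.

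Further down the pathway, kinases and effectors moved in no common direction: 9 of 21 had a positive difference, 4 were higher and 0 lower at an unadjusted p under 0.05, and 2 rose with weights. RPS6, the ribosomal protein S6 that S6 kinases phosphorylate, had 19816, 20864, 15535 and 21322 in vehicle and 26856, 38305, 42067 and 26421 in alpelisib libraries. It rose by 0.77 ± 0.25 without overlap (adjusted p = 0.0208 with weights), as did most ribosomal protein genes described below. SGK1, an AGC kinase related to AKT, had 2021, 2639, 4243 and 3475 in vehicle and 3796, 5327, 3039 and 5205 in alpelisib libraries. The groups overlapped, with vehicle 3 above alpelisib 1 and 3, and SGK1 rose by 0.51 ± 0.27 (adjusted p = 0.0260 with weights). EIF4EBP1, the translation repressor 4E-BP1 that mTOR inactivates, had 647, 554, 169 and 575 in vehicle and 675, 667, 1208 and 984 in alpelisib libraries. Its difference was 0.98 ± 0.38, and 0.53 without vehicle 3, the lowest library. PDPK1, the kinase that activates AKT, had a difference of -0.49 ± 0.26 and did not pass with weights.

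Among 21 inhibitors of PI3K and mTOR, 1 rose and 3 fell with weights. PIK3IP1, a transmembrane inhibitor of PI3K, had 938, 821, 650.0 and 1208 in vehicle and 1255, 1519, 1297 and 2147 in alpelisib libraries. The lowest alpelisib library lay above the highest vehicle library, and PIK3IP1 rose by 0.78 ± 0.27 (adjusted p = 0.0285 with weights). PHLPP2, a phosphatase that removes the activating phosphate from AKT, had 179, 211, 351 and 187 in vehicle and 150.3, 120.0, 101 and 90.7 in alpelisib libraries and fell by 0.97 ± 0.27 (adjusted p = 0.0193 with weights). SESN2, a stress-induced inhibitor of mTOR, fell by 0.41 ± 0.22 with overlapping groups, alpelisib 1 being above all vehicle libraries. INPPL1, a lipid 5-phosphatase known as SHIP2, fell by 0.28 ± 0.18 (adjusted p = 0.0295 with weights).

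FOXO target genes were split. Of 26 measured, 14 had a positive difference, the median was 0.016, and with weights 4 rose and 1 fell. CITED2, a transcriptional coregulator, had 1164, 902, 1219.7 and 1707 in vehicle and 1626, 2399, 1561 and 2506 in alpelisib libraries and rose by 0.70 ± 0.24 (adjusted p = 0.0206 with weights). Only vehicle 4 reached into its alpelisib range. BCL6, a transcriptional repressor, had 721, 668, 1372 and 1155 in vehicle and 1474, 2037, 1123 and 1868 in alpelisib libraries and rose by 0.76 ± 0.28 (adjusted p = 0.0128 with weights). FBXO32, the ubiquitin ligase atrogin-1, had 441, 393, 518 and 418 in vehicle and 451, 793, 577 and 729 in alpelisib libraries and rose by 0.50 ± 0.21 (adjusted p = 0.0241 with weights), with no overlap once vehicle 3 was left out. The fourth was PIK3IP1. RBL2, the pocket protein p130, went the other way, from 1805, 1777, 2297 and 1514 to 1392, 1259, 823 and 901, and fell by 0.77 ± 0.29. INSR, the insulin receptor, had 187, 210.3, 279 and 198 in vehicle and 143, 181, 144 and 122 in alpelisib libraries, lower without overlap, but did not pass with weights (-0.56 ± 0.24, adjusted p = 0.184). PDK4, a kinase that restrains pyruvate oxidation, had a difference of 0.74 ± 0.53 and did not pass.

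Receptors, their ligands and the readouts of ERK signalling were next in order. Of 19 receptor tyrosine kinases and adaptors, 2 rose with weights. AXL had 397, 218, 622 and 380.1 in vehicle and 942, 526, 572 and 795 in alpelisib libraries and rose by 0.86 ± 0.32 (adjusted p = 0.0303 with weights), and vehicle 3 was the only vehicle library within the alpelisib range. IRS1, the other, rose by 0.53 ± 0.32 with vehicle 3 above all alpelisib libraries. Among EGF family ligands, NRG1, which binds ERBB3 and ERBB4, had 227, 242, 552 and 417 in vehicle and 811, 555, 689 and 828 in alpelisib libraries and rose by 1.08 ± 0.32 without overlap (adjusted p = 0.0115 with weights). EGF had 69.6, 72.8, 64.2 and 40.8 in vehicle and 21.8, 31.9, 25.1 and 21.5 in alpelisib libraries and fell by 1.25 ± 0.33 without overlap (adjusted p = 0.0128 with weights). Of 17 ERK output genes 2 rose, namely DUSP5, an ERK phosphatase (0.97 ± 0.44), and ETV4, an ETS transcription factor (0.72 ± 0.25). Immediate early genes moved beside them: DUSP1 had 343, 222, 367 and 448 in vehicle and 921, 578, 529 and 846 in alpelisib libraries and rose by 1.06 ± 0.35, FOS rose by 0.91 ± 0.34 and NR4A1 by 0.85 ± 0.37, 3 of 20 genes of a list that also reads tissue handling. The part of handling in these values was not tested.

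Genes of squamous differentiation were higher across several lists. All 28 measured cornified envelope precursors had a positive difference (median 1.57, and 1.86 without vehicle 3). Of these, 19 were higher at an unadjusted p under 0.05, 9 did not overlap and 16 rose with weights, against 11.5%, 5.89% and 5.51% of all genes. The summed normalized count of the list was 13870, 13700, 32290 and 36490 in vehicle and 73050, 48940, 54230 and 55340 in alpelisib libraries. Vehicle 3 and vehicle 4 were nearer to the alpelisib libraries than vehicle 1 and 2 were.

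KRTDAP, a secreted protein of differentiating keratinocytes, had 1278, 1061, 1284 and 3368 in vehicle and 9476, 4945, 8638 and 7121 in alpelisib libraries, a rise of 2.23 ± 0.54 (limma adjusted p = 0.209, and 0.0149 with weights). SPRR1A, a small proline-rich precursor that is cross-linked into the envelope, had 520.3, 641, 1340.0 and 2238 in vehicle and 5008, 4217, 3673 and 3671 in alpelisib libraries, a rise of 2.04 ± 0.50 (adjusted p = 0.0122 with weights). LOR, which encodes loricrin, the main protein of the epidermal envelope, had 13.7, 30.4, 36.1 and 99.5 in vehicle and 387, 162, 148 and 219 in alpelisib libraries, a rise of 2.56 ± 0.84 (adjusted p = 0.0275 with weights). For each of the 3 the lowest alpelisib library exceeded vehicle 4, the highest vehicle library. LCE1A, a late cornified envelope gene, was near its detection limit in vehicle, at 0, 4.58, 0 and 10.7 in vehicle and 76.4, 18.03, 16.4 and 46.1 in alpelisib libraries. Members of the SPRR2 family rose likewise, SPRR2D by 2.06 ± 0.58 and SPRR2A by 1.83 ± 0.54, though reads of these near-identical copies may be divided among them by the counting and their single values are uncertain. SLURP1, which no list holds, encodes a secreted Ly6 family protein of stratified epithelia. It had the largest difference of the 10 higher genes named by rule, with 28.7, 42.4, 22.1 and 166 in vehicle and 263, 252, 317 and 342 in alpelisib libraries, and rose by 2.63 ± 0.60 (adjusted p = 0.0128 with weights).

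Keratins of the suprabasal layers were all positive, 11 of 11, with a median of 1.01, and 6 rose with weights. KRT10, the keratin that marks commitment of keratinocytes to differentiation, had 1307, 1253, 1279.9 and 2607 in vehicle and 3385, 2526, 3014 and 3482 in alpelisib libraries and rose by 1.01 ± 0.31 (adjusted p = 0.0251 with weights). Only vehicle 4 overlapped the alpelisib range. KRT4, the keratin of non-cornified mucosa, was higher without overlap (0.94 ± 0.38) but missed the threshold with weights (adjusted p = 0.0694). Of 10 keratins of basal and wounded epithelium, 5 rose and 1 fell. KRT16, a keratin of activated epidermis, had 9080.2, 4499.9, 8652 and 17593 in vehicle and 32327, 21087, 29867 and 34147 in alpelisib libraries and rose by 1.701 ± 0.46 without overlap (adjusted p = 0.0199 with weights). KRT6B rose by 1.84 ± 0.57, KRT6A by 1.16 ± 0.42, KRT14 by 1.14 ± 0.41 and KRT75 by 1.61 ± 0.61, and as KRT6A and KRT6B are near-identical, the split between them is uncertain. KRT15, a keratin of basal cells, had 6479, 5845, 997 and 3005 in vehicle and 1599, 2861, 2812 and 2827 in alpelisib libraries and fell by 0.41 ± 0.47 (a difference of -1.02 and adjusted p = 0.0427 with weights), with vehicle 3 the lowest vehicle library. Of the simple epithelial keratins KRT7 alone rose, by 1.05 ± 0.32 (adjusted p = 0.0457 with weights and 0.0549 when vehicle 3 was left out as well).

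**Figure D2:**
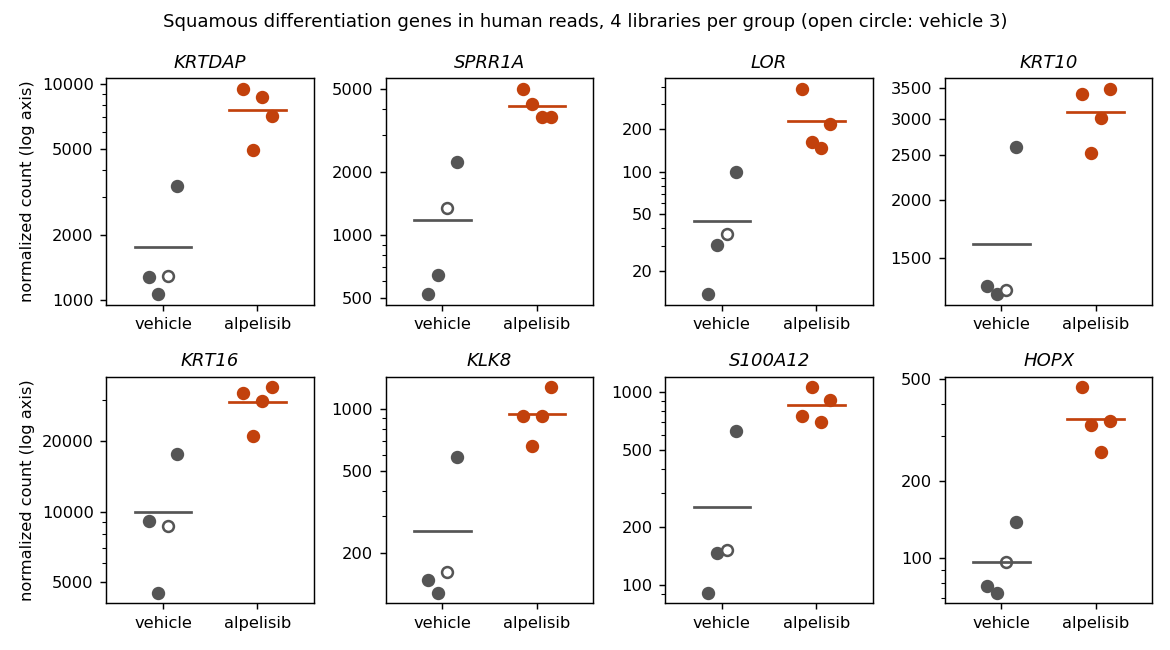
Normalized counts of 8 human squamous genes on a log axis in 4 vehicle (grey) and 4 alpelisib (orange) libraries, with group means as bars and vehicle 3 as an open circle. Apart from KRT10, where vehicle 4 overlaps, all alpelisib points lie above all vehicle points, and vehicle 4 is the highest vehicle point in each panel.

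Proteases and protease inhibitors of the outer epidermis followed the same direction: 22 of 22 were positive, 12 did not overlap, and 14 rose with weights. Over all genes 5.89% were higher without overlap and 5.51% rose. KLK8, a kallikrein protease of the desquamating layer, had 147, 128, 160.5 and 585 in vehicle and 924, 659.7, 922 and 1278 in alpelisib libraries and rose by 2.16 ± 0.58 (adjusted p = 0.0169 with weights). WFDC12, a WAP-type protease inhibitor, had 53.3, 77.4, 62.2 and 320.0 in vehicle and 921, 357, 395 and 549.7 in alpelisib libraries and rose by 2.43 ± 0.73. CSTB, the cathepsin inhibitor cystatin B, rose by 1.203 ± 0.37 and KLK5, a kallikrein that acts upstream of others in the epidermis, by 2.003 ± 0.65. S100 proteins and epithelial antimicrobial genes were also all positive (16 of 16, 12 risen, against 5.51% of all genes). S100A12, a calcium-binding alarmin, had 91.5, 147, 152 and 629 in vehicle and 754, 1063, 704 and 912 in alpelisib libraries and rose by 2.15 ± 0.59. DEFB1, a beta-defensin, had 10.9, 13.2, 4.01 and 25.4 in vehicle and 50.9, 63.1, 69.97 and 71.6 in alpelisib libraries and rose by 2.396 ± 0.53, its vehicle values being low counts. ASPRV1, an aspartic protease that processes profilaggrin, had 66.9, 51.01, 74.2 and 212 in vehicle and 533, 282, 296 and 463 in alpelisib libraries and rose by 2.13 ± 0.59. It was counted with the genes of barrier lipid synthesis, of which 4 of 19 rose, with ALOXE3, an epidermal lipoxygenase (1.55 ± 0.57), SULT2B1, a cholesterol sulfotransferase (1.26 ± 0.47), and PLA2G4E, a phospholipase (1.04 ± 0.70).

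Transcription factors of keratinocytes moved in part. Of 28, 6 rose and 1 fell with weights. HOPX, a homeodomain protein without DNA-binding activity of its own, had 77.8, 73.4, 96.3 and 138 in vehicle and 467, 331, 261 and 344 in alpelisib libraries. It rose by 1.87 ± 0.40 (adjusted p = 0.0115 with weights), and the lowest alpelisib library lay well above the highest vehicle library. TFAP2C, an AP-2 factor of surface ectoderm, had 5.46, 4.58, 14.04 and 16.03 in vehicle and 20.6, 34.7, 28.4 and 25.5 in alpelisib libraries and rose by 1.51 ± 0.41 at low counts. KLF4, a regulator of barrier formation, had 1393, 1276, 2893 and 2633 in vehicle and 3650.0, 3451, 2336 and 4175 in alpelisib libraries and rose by 0.80 ± 0.33 with overlapping groups. TP63, the master regulator of stratified epithelia, had 2230.1, 2035, 5489 and 3014 in vehicle and 3703, 4287, 3658 and 5123 in alpelisib libraries and rose by 0.50 ± 0.27 (adjusted p = 0.0132 with weights). SOX2, a stem cell factor of squamous epithelia, had 257, 275, 36.1 and 75.5 in vehicle and 32.7, 84.6, 38.3 and 75.6 in alpelisib libraries. It fell by 1.13 ± 0.59 (adjusted p = 0.0266 with weights). NOTCH1, a receptor that promotes keratinocyte differentiation, had 1225, 1186, 1031 and 535 in vehicle and 878, 431, 438 and 405 in alpelisib libraries and fell by 0.89 ± 0.30 (adjusted p = 0.0158 with weights). It was the only one of 15 Notch pathway genes to pass (2 fell when vehicle 3 was left out as well).

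Cell contact genes depended on vehicle 3. Of 13 desmosome genes 9 were positive with a median of 0.38, and without vehicle 3 11 were positive with a median of 0.64. Without it 6 were higher and 2 lower without overlap, against 7.68% and 8.72% of all genes. Of 13 desmosome genes, CDSN, the corneodesmosome protein of cornified layers, rose by 1.56 ± 0.64, and PKP2, a plakophilin of simple and basal epithelia, had 279, 253, 283 and 191 in vehicle and 133, 147, 130.1 and 129 in alpelisib libraries and fell by 0.88 ± 0.31 without overlap. Of 14 basal adhesion genes 5 rose: COL7A1, the anchoring fibril collagen (0.78 ± 0.36), CD44, the hyaluronan receptor (0.63 ± 0.33), LAMB3, a laminin chain (0.83 ± 0.46), COL17A1, the hemidesmosomal collagen (0.70 ± 0.40), and ITGA6, a laminin-binding integrin (0.49 ± 0.36). Over the 14 basal adhesion genes 11 were positive with a median of 0.49. Without vehicle 3 13 were positive with a median of 0.93, and 6 were higher and 1 lower without overlap. In CD44 vehicle 3 was the highest of all 8 libraries, and without it the difference was 0.95. Luminal urothelial genes did not follow: FOXA1, a luminal pioneer factor, fell by 0.57 ± 0.30 (adjusted p = 0.0335 with weights), and no other of the 11 genes passed. UPK1A, a uroplakin of umbrella cells, was at 12.3, 4.01, 0 and 16.03 in vehicle and 70.3, 25.7, 17.5 and 19.1 in alpelisib libraries, low values in every vehicle library (2.32 ± 0.77, adjusted p = 0.105 with weights).

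**Figure D3:**
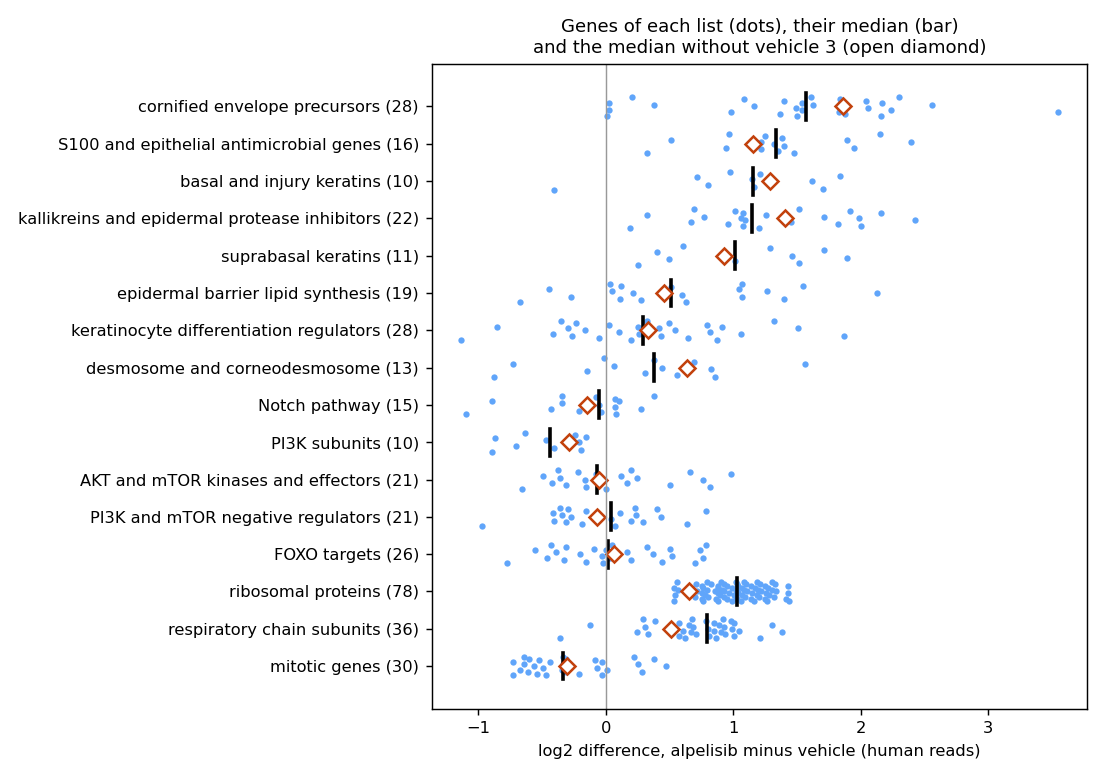
Log2 differences, alpelisib minus vehicle, of every tested gene in 16 human gene lists (dots; number of genes in brackets), with the list median (bar) and the median without vehicle 3 (open diamond). The cornified envelope, S100, keratin and kallikrein lists lie to the right with and without vehicle 3, ribosomal proteins and respiratory chain subunits shift towards 0 without it, and all 10 PI3K subunits lie left of 0.

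The largest lower genes named by rule did not belong to one pathway. CDH9 and CDH10 encode type II cadherins. CDH9 had 770.2, 870.0, 357 and 380.1 in vehicle and 98.2, 319.8, 149 and 119 in alpelisib libraries and fell by 1.83 ± 0.52, and CDH10 had 1382, 1497, 552 and 699 in vehicle and 228, 466, 349 and 393 in alpelisib libraries and fell by 1.44 ± 0.41 (adjusted p = 0.0128 and 0.0115 with weights). In both, vehicle 3 and 4 lay between vehicle 1 and 2 and the alpelisib libraries. PIGR, the receptor that carries polymeric immunoglobulin across epithelia, had 1446, 1426, 465 and 870.4 in vehicle and 232, 393, 285 and 318 in alpelisib libraries and fell by 1.66 ± 0.46. MUC16, a membrane mucin, had 2156, 2445, 3579 and 1548 in vehicle and 1155, 1058, 759 and 636 in alpelisib libraries and fell by 1.41 ± 0.36. SULF1, which trims sulfate from heparan sulfate, fell by 1.79 ± 0.45. MAN1A1, a Golgi mannosidase, fell by 1.495 ± 0.38 and MME, the cell surface peptidase neprilysin, fell by 1.26 ± 0.37. IGSF10 (-1.67 ± 0.49), MYO5C, an unconventional myosin (-1.45 ± 0.38), and PPP1R9A, the actin-binding protein neurabin (-1.36 ± 0.44), complete the 10, all of which fell with weights. Among the 10 largest higher genes, 3 are in none of the gene lists, SLURP1 and 2 more. TPPP3, a tubulin-binding protein, had 608, 236, 357 and 862 in vehicle and 2113, 1391, 1756 and 2499 in alpelisib libraries and rose by 2.05 ± 0.43, and MUCL1, a small secreted mucin-like protein, had 25.9, 28.7, 26.1 and 68.8 in vehicle and 206, 103, 175 and 136 in alpelisib libraries and rose by 2.11 ± 0.56.

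Ribosomal protein and respiratory chain genes were higher, by an amount that moved with vehicle 3. All 78 ribosomal protein genes were positive and 77 of them were higher at an unadjusted p under 0.05, with a median of 1.02 that became 0.65 without vehicle 3. Of these, 43 did not overlap and 52 rose with weights. Over all genes 11.5% were higher at that p, 5.89% were higher without overlap and 5.51% rose. RPL14 had 5748, 5875, 5322 and 7027 in vehicle and 9694, 12917, 15229 and 9271 in alpelisib libraries, a rise of 0.95 ± 0.25, with vehicle 3 close to the other vehicle libraries. RPS26 had 1852, 2012, 869 and 2120.3 in vehicle and 2734, 2949, 4999.6 and 3973 in alpelisib libraries, a rise of 1.14 ± 0.30, with vehicle 3 far below them. Reads of ribosomal protein genes can be shared with their many processed pseudogenes. Respiratory chain subunits had a median of 0.79 (0.51 without vehicle 3), and 14 of 36 rose with weights. Other genes of protein synthesis gave fewer calls: of 26 ribosome biogenesis genes 13 were positive, with a median of 0.034, 4 risen and 1 fallen with weights, and of 19 translation factors of the TOP class 15 were positive, with a median of 0.14 and 1 risen. Glycolysis genes were positive in 23 of 24 cases, but with weights LDHB, a lactate dehydrogenase subunit, alone rose (0.59 ± 0.33). The part of RNA quality in these values was not tested.

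Redox and lipid genes gave calls in both directions. TXN, the thiol reductant thioredoxin, had 3264, 3469, 3673 and 3704 in vehicle and 6128, 9409, 8091 and 5155 in alpelisib libraries and rose by 0.99 ± 0.24, while TXNRD1, the reductase that recycles it, had 2069, 1708, 2233 and 1559 in vehicle and 1013, 1238, 913 and 918 in alpelisib libraries and fell by 0.89 ± 0.26. Neither overlapped (adjusted p = 0.0115 and 0.0179 with weights). AKR1C3, an aldo-keto reductase, rose by 0.81 ± 0.25. In fatty acid synthesis 3 of 15 genes fell with weights, namely GPAM, which starts glycerolipid synthesis (-0.71 ± 0.27, adjusted p = 0.0456 with weights and 0.0510 when vehicle 3 was left out as well), ACSL3, an acyl-CoA synthetase (-0.62 ± 0.24), and ELOVL5, an elongase (-0.41 ± 0.18), while ACSS2, which makes acetyl-CoA from acetate, rose by 0.60 ± 0.24. TKT, the transketolase of the pentose phosphate pathway, had 3607, 2812, 2989 and 3452 in vehicle and 4324, 4277, 5560.4 and 5891 in alpelisib libraries and rose by 0.63 ± 0.20 without overlap.

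Mitotic genes gave few calls. Of 30 mitotic genes 6 were positive, with a median of -0.34, 3 were lower at an unadjusted p under 0.05, all groups overlapped, and 0 passed with weights. They were NUSAP1, a spindle protein (-0.64 ± 0.29), KIF23, a kinesin of cytokinesis (-0.73 ± 0.34), and BUB1B, a spindle checkpoint kinase (-0.56 ± 0.27). NUSAP1 had 1427, 1598, 1246 and 1011 in vehicle and 482, 1066, 882 and 1069.9 in alpelisib libraries, with alpelisib 1 the lowest library. Of 15 G1 cyclins and CDK inhibitors 5 were higher and 1 lower at an unadjusted p under 0.05, against 11.5% and 7.17% of all genes. Without vehicle 3 these counts were 3 and 1. Without overlap 3 were higher and 2 lower, and with weights 1 rose and 1 fell. CDKN2B, the CDK4 inhibitor p15, rose by 0.49 ± 0.22 (adjusted p = 0.0182 with weights). Of 14 BCL2 family genes only PMAIP1, the pro-apoptotic protein NOXA, rose, from 146, 152, 307 and 234 to 267, 483, 274 and 425 (0.81 ± 0.29).

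Ligands that tumour cells can send to vessels and leukocytes were partly higher. Of 20 angiogenic ligands 7 were higher and 2 lower without overlap, and 4 rose and 1 fell with weights. Over all genes these shares were 5.89% and 5.95% without overlap, and 5.51% and 4.09% with weights. FGFBP1, which releases FGF from the matrix, had 1588, 1327, 2375 and 2958 in vehicle and 4952, 3250.4, 6271 and 6761 in alpelisib libraries and rose by 1.38 ± 0.37 (adjusted p = 0.0128 with weights). The other risen ligands were VEGFC, the lymphatic growth factor (1.13 ± 0.45), CYR61, a matricellular protein (0.84 ± 0.31), and FGF2 (0.35 ± 0.31). PDGFD, a ligand of PDGF receptor beta, had 60.1, 50.4, 42.1 and 32.7 in vehicle and 20.6, 31.9, 14.2 and 19.1 in alpelisib libraries and fell by 1.099 ± 0.39. PGF, a VEGF receptor 1 ligand, was higher without overlap at 343, 67.6, 156 and 347 in vehicle and 695, 418, 535 and 397 in alpelisib libraries but missed the threshold with weights (1.396 ± 0.48, adjusted p = 0.107). CCL5, a chemokine for T cells and monocytes, had 1011, 908, 1061 and 2292 in vehicle and 3480.3, 2336, 3596 and 3763 in alpelisib libraries and rose by 1.41 ± 0.35 (adjusted p = 0.0128 with weights).

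In mouse reads, 714 genes were higher (6.03%) and 535 lower (4.52%) at an unadjusted p under 0.05. These 1249 genes became 777 without vehicle 3 and 756 without alpelisib 4. In 494 (4.18%) and 359 (3.03%) the groups did not overlap, or, without vehicle 3, in 669 (5.65%) and 554 (4.68%). The difference was positive in 50.9% and negative in 49.1% of mouse genes. With library weights 117 rose (0.989%) and 51 fell (0.431%), and with weights and without vehicle 3 the counts were 99 (0.837%) and 33 (0.279%). Host genes made up 15.6% to 20.3% of reads in vehicle and 13.1% to 15.2% in alpelisib libraries once Rn45s and Lars2 were left out. Mouse ribosomal protein genes were positive in 77 of 78 cases, with a median of 0.81 (0.44 without vehicle 3). Of them 45 were higher at an unadjusted p under 0.05 and 17 rose with weights, and their summed normalized count was 207000, 203400, 90790 and 195200 in vehicle and 248900, 329800, 407300 and 286800 in alpelisib libraries. Rps19 (a rise of 1.47 ± 0.40), Rpl37a (1.41 ± 0.37), Rps27 (1.36 ± 0.33) and Nop10, a small protein of ribosome biogenesis (1.37 ± 0.38), were among the 10 largest higher mouse genes, and vehicle 3 was the lowest library for each. Rps27 did not pass with weights when vehicle 3 was left out as well (adjusted p = 0.0563). Over the 8 libraries it collected 662 mouse reads and the human gene of that name 199580, and Rps19 82617 against 167956. The part of human reads in these rises was not tested. The part of RNA quality in the host values was not tested. In bulk tissue, fewer cells of a type and less RNA per cell cannot be told apart.

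Part of the genes that mark macrophages and other leukocytes were lower. Emr1, which encodes the macrophage antigen F4/80, had 937, 1011, 840.5 and 683 in vehicle and 423, 470.3, 426 and 320.5 in alpelisib libraries and fell by 1.08 ± 0.19 (limma adjusted p = 0.183, and 0.00583 with weights). Every alpelisib library lay below every vehicle library. Mpeg1, a pore-forming protein of macrophages, had 2679, 2732, 3256 and 2303 in vehicle and 1435, 1704, 1230.0 and 988 in alpelisib libraries and fell by 1.05 ± 0.21 (adjusted p = 0.0141 with weights). Ptprc, which encodes the leukocyte antigen CD45, had 783, 788, 1431 and 602 in vehicle and 423, 512, 422 and 229.8 in alpelisib libraries and fell by 1.16 ± 0.29 (adjusted p = 0.0379 with weights). Cd180, a Toll-like receptor homologue of B cells and myeloid cells, had 187, 232, 169.9 and 168 in vehicle and 114, 105, 50.7 and 54.2 in alpelisib libraries and fell by 1.298 ± 0.28 (adjusted p = 0.0136 with weights). Ctss, a lysosomal protease of antigen-presenting cells (-0.68 ± 0.22), and Csf1r, the receptor of the macrophage growth factor (-0.43 ± 0.19), also did not overlap, but did not pass with weights. Over the macrophage list as a whole the signs turned on vehicle 3: 11 of 22 genes were positive with a median of 0.0071, and without it 1 was positive with a median of -0.20. Of the list, 5 were lower and 0 higher at an unadjusted p under 0.05 (3 and 0 without vehicle 3), and Emr1 alone fell with weights. Over all mouse genes 4.52% were lower and 6.03% higher at that p. The summed list was 62140, 62170, 31540 and 51140 in vehicle and 37170, 42760, 55880 and 52680 in alpelisib libraries, with overlapping groups. The other leukocyte lists differed in direction from one another. Of 9 neutrophil genes 7 were positive (6 without vehicle 3), and 2 rose and 0 fell with weights. Of 9 monocyte genes 4 were positive with and without vehicle 3, and S100a4 alone rose with weights. Of 12 dendritic cell genes 7 were positive (4 without vehicle 3), and 0 passed with weights. T cell genes were positive in 3 of 12 cases (5 without vehicle 3), with a median of -0.49. Natural killer genes, given below, were positive in 2 of 12 cases. B and plasma cell genes were positive in 2 of 4 and mast cell genes in 5 of 8 cases. In these lists 0 genes passed with weights.

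**Figure D4:**
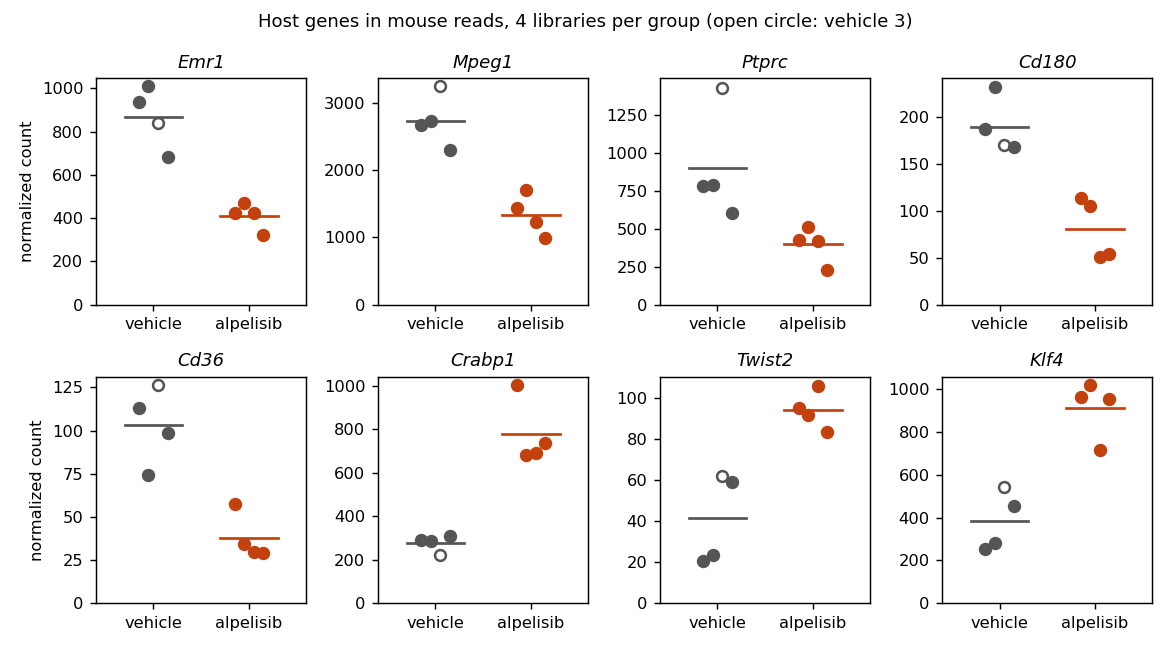
Normalized counts of 8 mouse genes in 4 vehicle (grey) and 4 alpelisib (orange) libraries, with group means as bars, a linear axis from 0 and vehicle 3 as an open circle. Emr1, Mpeg1, Ptprc, Cd180 and Cd36 lie lower and Crabp1, Twist2 and Klf4 higher in alpelisib libraries, all without overlap.

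The other large decreases named by rule also include leukocyte genes. Arhgef6, a Rac exchange factor, had 128, 123, 165 and 98.5 in vehicle and 57.6, 64.7, 70.8 and 53.4 in alpelisib libraries and fell by 1.03 ± 0.21, Fam49a fell by 1.06 ± 0.25, and Serpinb9, an inhibitor of granzyme B, fell by 1.16 ± 0.26 (adjusted p = 0.0130, 0.0194 and 0.0400 with weights). Vehicle 3 was the highest library for Serpinb9, and without it the unweighted difference was -0.94. With weights and without vehicle 3 Serpinb9 did not pass (adjusted p = 0.0506). Cd36, a fatty acid and scavenger receptor, had 113, 74.3, 126 and 98.5 in vehicle and 57.6, 34.1, 29.5 and 29.1 in alpelisib libraries, a difference of -1.46 ± 0.45 (adjusted p = 0.0538 with weights). Pik3ap1, an adaptor that links immune receptors to PI3K, had 225, 262, 229.6 and 176 in vehicle and 173, 141, 42.5 and 52.6 in alpelisib libraries, a difference of -1.35 ± 0.45 (adjusted p = 0.0597 with weights). Cd38, an NAD-consuming surface enzyme, had a difference of -1.09 ± 0.29 with vehicle 3 the highest library. In the human table CD68, a lysosomal gene that macrophages also express, was higher at 374, 226, 363 and 525 in vehicle and 965, 582, 754 and 822 in alpelisib libraries (1.11 ± 0.33).

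Host PI3K genes and FOXO targets gave calls in both directions at an unadjusted p under 0.05. Pik3ca had 165, 164, 328 and 137 in vehicle and 140.1, 152, 192 and 114 in alpelisib libraries, with overlapping groups and vehicle 3 the highest library (-0.34 ± 0.28). Of 23 PI3K and insulin signalling genes 5 were lower at an unadjusted p under 0.05 (Irs2, Pik3cb, Pik3r3, Pik3r1 and Pik3cg, with differences from -1.74 to -0.62) and 1 was higher. Over all mouse genes 4.52% were lower and 6.03% higher at that level. Without vehicle 3, 0 of the 23 were lower and 1 was higher, and 0 passed with weights. Pik3r3 had 71.7, 92.7, 142 and 69.8 in vehicle and 49.8, 41.1, 49.5 and 39.7 in alpelisib libraries, lower without overlap as in human reads (-0.99 ± 0.42, adjusted p = 0.154 with weights). Of 26 host FOXO targets 4 were higher and 3 lower at an unadjusted p under 0.05. With weights 3 rose, beside 0.989% of all mouse genes, and 0 fell. Klf4 had 252, 279, 542 and 452 in vehicle and 963, 1021, 717 and 954 in alpelisib libraries and rose by 1.32 ± 0.36, Bcl6 had 221, 225, 393 and 244 in vehicle and 420.2, 669, 402 and 558 in alpelisib libraries and rose by 0.93 ± 0.32, and Cited2 rose by 0.77 ± 0.28 (adjusted p = 0.0130, 0.0234 and 0.0400 with weights). Tsc22d3, which encodes the glucocorticoid-induced leucine zipper, had 234, 187, 115 and 178 in vehicle and 237, 353, 396 and 465 in alpelisib libraries and rose by 1.02 ± 0.25. Fos, an immediate early gene, had 171, 88.3, 204 and 149.6 in vehicle and 325, 342, 336 and 358 in alpelisib libraries and rose by 1.21 ± 0.33. Over the 8 libraries the human genes of these names collected more reads than the mouse genes. The counts were 24000 against 5425 for Klf4, 11634 against 3286 for Bcl6 and 14968 against 6168 for Cited2. They were 8545 against 2372 for Tsc22d3, 7618 against 2007 for Fos and 9675 against 583 for Pik3r3. Reads of conserved human transcripts can map to the mouse genome, and their part in these values was not tested.

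Stromal genes were higher in a few cases. Twist2, a transcription factor of mesenchymal cells, had 20.7, 23.5, 62.00 and 58.8 in vehicle and 94.9, 91.8, 106 and 83.4 in alpelisib libraries and rose by 1.33 ± 0.37 (adjusted p = 0.0130 with weights), the only one of 26 fibroblast genes to do so (2 when vehicle 3 was left out as well). Crabp1, a retinoic acid binding protein of dermal fibroblasts, had 289, 288, 223 and 311 in vehicle and 1004, 684, 692 and 736 in alpelisib libraries and rose by 1.48 ± 0.30 (adjusted p = 0.0113 with weights). Mmp10, a stromelysin, had 109, 46.4, 193 and 93.5 in vehicle and 677, 226, 259 and 211 in alpelisib libraries and rose by 1.62 ± 0.55. S100a4, a gene of the monocyte list, rose by 1.64 ± 0.46. Ppp1r14b, a phosphatase inhibitor, rose by 1.52 ± 0.37, and in both genes vehicle 3 was the lowest library. Over the 8 libraries S100a4 collected 3717 mouse reads and the human gene of that name 12917, and Ppp1r14b 22090 against 90968. The part of human reads in these rises was not tested. Of 26 endothelial genes, 9 were positive and none passed an unadjusted p under 0.05 or the fit with weights. Natural killer genes were positive in 2 of 12 cases at low counts, and 0 passed.

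Mouse keratin values have to be read beside the human ones. Krt14 had 30841, 19035, 33852 and 29356 in vehicle and 82220.5, 51899, 71034 and 82761 in alpelisib libraries and rose by 1.36 ± 0.37, Krt42 rose by 1.44 ± 0.35, and Krt17 had 17994, 11459.7, 15962 and 15162 in vehicle and 42772, 28495, 31794 and 35689 in alpelisib libraries and rose by 1.198 ± 0.29. Over the 8 libraries Krt14 collected 406178 mouse reads and the human gene of that name 1358086, and Krt17 202446 against 1356584. Reads of conserved human transcripts can map to the mouse genome, and the share of such reads was not tested. Markers of fat and muscle around a tumour were lower. Of 12 adipocyte genes 1 was positive, with a median of -0.996 (-1.505 without vehicle 3), and 3 fell with weights. The summed list, with 16 genes in the table, was 1333, 1079, 705 and 1419 in vehicle and 555.6, 471.2, 561.3 and 569.7 in alpelisib libraries, without overlap. Adipoq, the adipocyte hormone adiponectin, had 15.2, 46.4, 0 and 29.6 in vehicle and 0, 0, 1.18 and 0 in alpelisib libraries and fell by 3.35 ± 1.18 (adjusted p = 0.0141 with weights), with vehicle 3 at 0 like most alpelisib libraries. Cfd, the adipocyte protease adipsin, fell by 3.02 ± 1.54 and Car3, a carbonic anhydrase, fell by 3.79 ± 1.996. Of 18 skeletal muscle genes 0 were positive, with a median of -1.81 (-2.93 without vehicle 3), and 0 passed with weights. Their sum was 19260, 1462, 1213 and 3288 in vehicle and 6158, 1310, 957.6 and 1217 in alpelisib libraries, with overlapping groups. The part of surrounding fat and muscle in the host decreases, that of Cd36 included, was not tested.

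Alpelisib added to nintedanib was compared in other libraries, those of the combination (n = 4) and of nintedanib (n = 5). The p-values of both contrasts are not independent, because all 17 libraries set the spread of each gene in the fit. In that contrast 0 genes passed in limma, and 186 human genes were higher (1.28%) and 370 lower (2.55%) at an unadjusted p under 0.05. The difference was positive in 51.3% and negative in 48.7% of human genes. Between both contrasts 116 human genes were shared at that level, 4.29% of the alpelisib against vehicle list, beside 3.83% of all genes in the other contrast. They were 20.9% of the combination against nintedanib list, beside 18.6% of all genes in the alpelisib against vehicle contrast, so that both shares lay near the background. Of the shared genes, 76 were higher in both, 30 lower in both and 10 went in opposite directions. In mouse reads, 334 genes were higher (2.82%) and 496 lower (4.19%), with 50.6% positive and 49.4% negative. There 167 were shared, 13.4% of the alpelisib against vehicle list beside a background of 7.02%, and 20.1% of the other list beside 10.6%, with 96 higher in both, 62 lower in both and 9 opposite.

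FOXO targets in both settings are given side by side. With nintedanib present 19 of 26 were positive with a median of 0.28, beside 14 and 0.016 for alpelisib alone. The single FOXO targets given next are the 4 that rose for alpelisib alone and PDK4. CITED2 was at 1338 ± 371 in nintedanib and 2336 ± 391 in combination libraries, a difference of 0.83 ± 0.22 beside 0.70 for alpelisib alone. PIK3IP1 differed by 0.81 ± 0.26, BCL6 by 0.72 ± 0.26 and FBXO32 by 0.72 ± 0.19. PDK4 differed by 2.697 ± 0.51, and by 0.74 ± 0.53 for alpelisib alone. PIK3R3 was lower in both, with a difference of -0.55 ± 0.19 with nintedanib present. The PI3K subunits as a list were not. With nintedanib present 6 of 10 were positive with a median of 0.051, beside 0 and -0.44 for alpelisib alone. PIK3CA differed by 0.57 ± 0.30 there, beside -0.41 ± 0.32. With nintedanib present, cornified envelope precursors had a median of 0.35 with 23 of 28 positive. KRTDAP was at 9323 ± 6282 in nintedanib and 12763 ± 4033 in combination libraries (0.83 ± 0.52), and HOPX at 367 ± 222 in nintedanib and 266 ± 119 in combination libraries (-0.34 ± 0.38). The test of the difference between both contrasts gave 0 genes at an adjusted p under 0.05 in either species (992 human and 571 mouse genes at an unadjusted p under 0.05, lowest adjusted p 0.662 and 0.84). For HOPX that difference was 2.21 ± 0.55 (adjusted p = 0.662) and for KRTDAP 1.403 ± 0.75 (adjusted p = 0.662). In the host, Crabp1 differed by 0.82 ± 0.28, Cd36 by -1.46 ± 0.43 and Cited2 by 1.18 ± 0.26 with nintedanib present, and Emr1 by -0.22 ± 0.18, each in the same direction as for alpelisib alone. Other host genes described above did not all follow. Mpeg1 (-0.15 ± 0.20) and Ptprc (-0.11 ± 0.27) had differences smaller than their SE. S100a4 (-0.20 ± 0.44) and Pik3ca (0.62 ± 0.27) had the opposite sign to that for alpelisib alone. The macrophage list was positive in 14 of 22 cases with a median of 0.16. For Emr1 the difference between both contrasts was -0.86 ± 0.27 (adjusted p = 0.840).

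**Figure D5:**
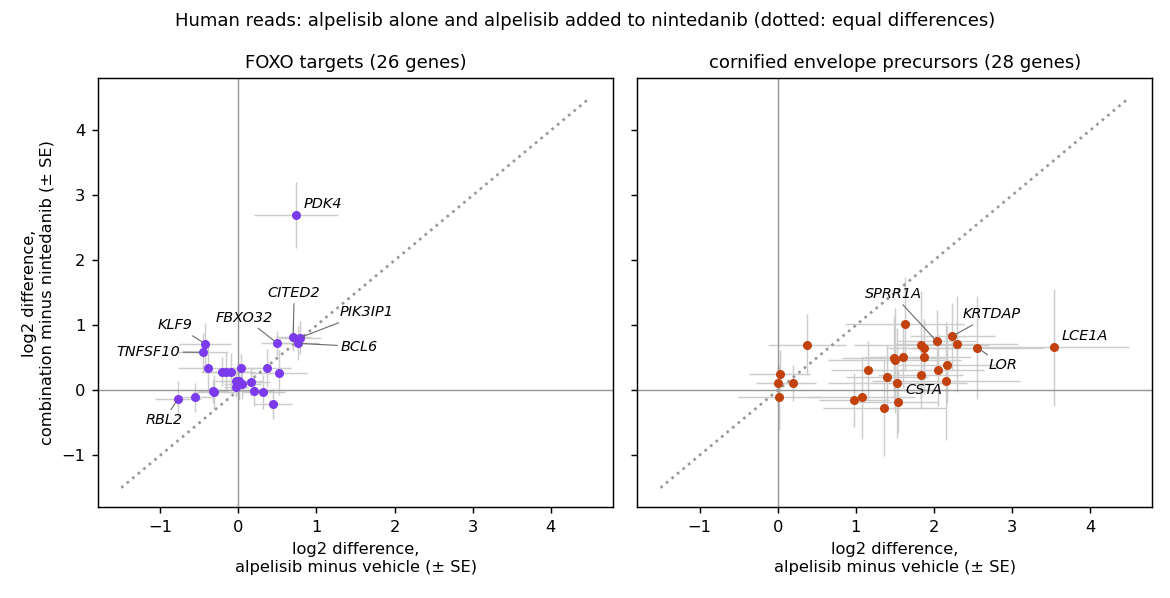
Log2 differences ± SE of FOXO targets (left, 26 genes) and cornified envelope precursors (right, 28 genes), with alpelisib minus vehicle on the horizontal and combination minus nintedanib on the vertical axis, and equal differences as a dotted line. CITED2, PIK3IP1, BCL6 and FBXO32 lie near the line, PDK4 lies above it, and most cornified envelope genes lie below it.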

How the data were processed

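RNA was measured in bulk tumours. Per the labels' protocols, polyA libraries were made with the TruSeq RNA v2 kit, which does not mark strand, and read as 75-bp pairs, so overlapping and antisense genes cannot be told apart. Per the submitters' processing notes, the authors used Bowtie, TopHat and DESeq2 with the builds hg19 and mm10. No source used here gives the counter or the annotation. The deposited values are normalized counts, a signal per gene that the authors scaled by library. Whole reads were recovered from them for 100% of values (within 0.001), at 7429753 to 25654879 human and 2271764 to 6517101 mouse reads in the 8 libraries compared.

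Each table was analysed on its own. Genes with a mean of at least 10 over 17 libraries (14533 human, 11831 mouse) were fitted as log2(value + 1) with limma 3.58.1 (trend, R 4.3.3), with 5 group means over all 17 libraries and the 5 nintedanib libraries weighted equally. Nintedanib responders and non-responders each had a mean of their own in the fit. Benjamini-Hochberg adjustment was over all tested genes of a table, at 0.05, two-sided. Alternatives were library weights (limma), TMM scaling and edgeR 4.0.16, DESeq2 1.42.0 and limma-voom on the recovered reads, pseudocounts of 0.5 and 5, other filters, a replicate block, and each library left out. The script was tested on simulated data. No 2 libraries of a group were copies (chi-square per gene at least 14.78). Members and gene lists were chosen with earlier results of these data known.

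Named by rule were, per table, the 10 largest differences in each direction at an unadjusted p under 0.01, a mean of at least 100 in the higher group and no overlap, up to 4 members per list by p, the drug targets, and PI3K, FOXO and squamous list members. CDKN2B, CYR61, FGF2, LDHB, VEGFC and Csf1r were named after their values were seen. Some genes that the rule names are not reported here.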

Additional observations from a re-analysis of the deposited data

Results flagged for a closer look

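In each group of 4 libraries, a library was marked when its gap to the nearest other, divided by the range of the group, exceeded the 95% critical value of Dixon's test for 4 values. Of 304 groups looked at, 35 were marked, and chance marks about 1 in 20. Many of the genes share libraries and vary together, so these marks are not independent.

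Among library measures, vehicle 3 stood apart with 72.9% of its mouse reads on Rn45s and Lars2 against 13.1% in the next library (ratio 0.844), and alpelisib 3 with 44.1% against 7.999% (ratio 0.877). Vehicle 3 also had the lowest ribosomal protein share in human reads, 3.24% against 7.11% (ratio 0.861), and in mouse reads, 2.87% against 6.71% (ratio 0.997). Vehicle 4 had the highest mouse share of reads without Rn45s and Lars2, 20.3% against 16.3% (ratio 0.861).

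For single genes, in normalized counts, the libraries were the following. Alpelisib 1 was the highest alpelisib library, apart from the others, for CDSN (1604 against 479.7, ratio 0.837), NOTCH1 (878 against 438, ratio 0.929), PLA2G4E (470.3 against 210.0, ratio 0.841) and SESN2 (474 against 253, ratio 0.848). The same held for UPK1A (70.3 against 25.7, ratio 0.845), Car3 (82.5 against 3.54, ratio 0.957), Crabp1 (1004 against 736, ratio 0.835) and Mmp10 (677 against 259, ratio 0.896). Alpelisib 1 was the lowest alpelisib library, apart from the others, for AKR1C3 (929 against 1455, ratio 0.932) and KRT15 (1599 against 2812, ratio 0.961). Alpelisib 2 was the highest alpelisib library, apart from the others, for SULF1 (36.8 against 25.1, ratio 0.846) and Irs2 (9.62 against 2.43, ratio 0.852). Alpelisib 3 was the highest alpelisib library, apart from the others, for Adipoq (1.18 against 0, ratio 1). Alpelisib 4 was the highest alpelisib library, apart from the others, for ELOVL5 (1528 against 1187, ratio 0.851). Vehicle 3 was the highest vehicle library, apart from the others, for PIK3CA (845 against 435, ratio 0.840), Bcl6 (393 against 244, ratio 0.864), Pik3ca (328 against 165, ratio 0.851) and Serpinb9 (154 against 90.3, ratio 0.854). Vehicle 3 was the lowest vehicle library, apart from the others, for INPPL1 (1299.9 against 1939, ratio 0.853). Vehicle 4 was the highest vehicle library, apart from the others, for AKR1C3 (1098 against 672, ratio 0.901), ASPRV1 (212 against 74.2, ratio 0.856), CCL5 (2292 against 1061, ratio 0.889) and ETV4 (102 against 72.2, ratio 0.850). The same held for KLK8 (585 against 160.5, ratio 0.928), KRT10 (2607 against 1307, ratio 0.960), KRTDAP (3368 against 1284, ratio 0.903) and MUCL1 (68.8 against 28.7, ratio 0.937). The same held for S100A12 (629 against 152, ratio 0.887), SLURP1 (166 against 42.4, ratio 0.859) and WFDC12 (320.0 against 77.4, ratio 0.910).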

How the results depend on the processing

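The count of genes changed by alpelisib was 0 in both species by the main test and stayed at 0 when any 1 of the 8 libraries was left out (lowest 0, highest 0 of 8 fits each), with pseudocounts of 0.5 and 5, a filter at 50 or none, TMM scaling, scaling without ribosomal genes, edgeR, limma-voom, and only the 8 compared libraries in the fit. With library weights it was 1395 human and 168 mouse genes, and with DESeq2, which gave an adjusted p to 1008 human and 2645 mouse genes, 173 and 113. Among the settings chosen after the data were seen, the 8 compared libraries without vehicle 3 gave 298 and 1 genes, and library weights without vehicle 3 gave 1427 and 132. The cause of these differences was not tested. For alpelisib added to nintedanib, DESeq2 called 1 human and 30 mouse genes against 0 by the main test, no filter on low values gave 1 mouse gene, and leaving out each library in turn gave 0 human genes and 0 to 4 mouse genes, the 4 without combination 1. A fit with the replicate number as a block called 0 genes in either species (2925 human and 1098 mouse genes at an unadjusted p under 0.05). Same-number libraries did not vary together in general (correlation above 0.1 in 1 of 4 pairs per species, against 5 of 12 for different numbers), so the numbers were not taken as pairs. Of the genes named, PIK3CD alone changed sign, with differences of -0.47 to 0.043 when each library was left out in turn, the latter without alpelisib 3. 97 of 110 human and 27 of 36 mouse genes named passed with weights and none by the main test. Over all tested genes, 1395 of 14533 human and 168 of 11831 mouse genes passed with weights. Many of the named genes were picked by p or by size of difference in the same libraries, so their share is no check on them. Of 44 human list medians, 6 moved by more than the spread within groups without vehicle 3. Depth limits the low genes most, such as LCE1A, UPK1A, TFAP2C and Adipoq, and vehicle 3, with the fewest human reads, most of all.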

Other observations

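The genes in this paragraph were chosen after their values were seen, as they lie outside the rule for named genes. C10orf10, which encodes DEPP, a protein known to be induced by FOXO, had 54.6, 31.5, 28.1 and 61.5 in vehicle and 83.6, 177, 109 and 239 in alpelisib libraries. It rose by 1.73 ± 0.43 without overlap (adjusted p = 0.0124 with weights), and with nintedanib present alpelisib gave 1.88 ± 0.41. GATM, the enzyme that starts creatine synthesis, had 72.4, 112, 66.2 and 88.8 in vehicle and 24.2, 51.3, 16.4 and 31.8 in alpelisib libraries. It fell by 1.51 ± 0.33 without overlap (adjusted p = 0.0122 with weights), and the difference with nintedanib present was -0.76 ± 0.32. Both genes were at an unadjusted p under 0.05 in each of the 2 contrasts.

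Of 31 human interferon response genes 16 were positive with a median of 0.095. Leaving out vehicle 3 gave 26 positive genes and a median of 0.22. With weights 3 rose and 0 fell. The summed list was 90810, 76360, 86200 and 94170 in vehicle and 113500, 105200, 118100 and 121900 in alpelisib libraries, without overlap. OASL, an antiviral gene, had 1314, 963, 1101 and 2126 in vehicle and 2186, 2351, 2024 and 3748 in alpelisib libraries and rose by 0.93 ± 0.29 (adjusted p = 0.0244 with weights). ISG15, a ubiquitin-like modifier, had 4911, 3504, 1209.7 and 5503 in vehicle and 7609, 7056, 11098 and 9949 in alpelisib libraries and rose by 1.42 ± 0.44, with vehicle 3 the lowest library. Among p53 targets DDB2, a DNA damage recognition protein, had 623, 507, 359 and 721 in vehicle and 784, 893, 1000.4 and 1375 in alpelisib libraries and rose by 0.89 ± 0.25 (adjusted p = 0.0196 with weights).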
